A study of Mus musculus with 10 samples.

Results

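A set of 9 citric acid cycle genes was followed in gastrocnemius muscle: Cs, Idh3a, Idh3b, Idh3g, Ogdh, Dlst, Suclg1, Fh1 and Mdh2. They were chosen by name, as enzymes of the cycle or subunits of its enzyme complexes, with earlier results of these data known. The set leaves out other enzymes of the cycle, which are given further below. Its members make up 9 of the 21098 genes in the count table. Of these, 8 had counts and passed the filter on low values, as did 7813 genes in all. The last one, Idh3b, had no base free of overlap between segments and was listed at 0 in every library.

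The libraries came from male mice of wild-type genotype, C57BL/6J in the labels and C57BL/6JBomTac in the study's methods, all of them made obese on the high fat diet D12492i for 9 weeks from 9 weeks of age. The series text gives an age of 30 weeks at the end, although the stated diet and treatment times add up to more. The ASO group (n = 5) received the anti-miR-22 antisense oligonucleotide RES-010 under the skin at 10 mg/kg once a week for 14 weeks, and the CTRL group (n = 5) received matched volumes of 0.9% saline on the same schedule. The control was saline and not another oligonucleotide, so the sequence of the ASO and the presence of an oligonucleotide cannot be told apart. Each library is a separate mouse, and all mice of both groups were on the high fat diet, so no comparison with lean muscle can be made here.

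The citric acid cycle oxidizes the acetyl group of acetyl-CoA in the mitochondrial matrix and passes the electrons to NADH and FADH2, which feed the respiratory chain. Citrate synthase opens the cycle, isocitrate dehydrogenase and the 2-oxoglutarate dehydrogenase complex release carbon dioxide, succinate-CoA ligase makes a nucleoside triphosphate, and fumarase and malate dehydrogenase bring the carbon back to oxaloacetate. In skeletal muscle, fibres that rely on oxidative metabolism are rich in mitochondria, and citrate synthase activity is a common measure of mitochondrial content.

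The table gives read pairs on segments of up to 500 bp at the 3′ ends of transcripts, and the segments of a gene were added together. Library totals ranged from 1606491 to 2116297 read pairs in CTRL and from 2238864 to 2632214 in ASO, so that every ASO library was deeper than every CTRL library. Levels are given as CPM, the counts of a gene scaled to a common library size by TMM. Differences are log2 fold changes of ASO over CTRL, tested in edgeR by quasi-likelihood and adjusted over all 7813 genes after Benjamini and Hochberg, with a threshold of 0.05. In bulk muscle, fewer cells of a type and less RNA per cell cannot be told apart. CTRL 3 held the most adipocyte marker RNA, at a summed 14340 CPM over 8 genes against 757 to 3866 CPM in the other libraries, and CTRL 1 and ASO 4 held the most slow fibre marker RNA.

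Of the 8 genes tested, Idh3g was higher in ASO muscle and Suclg1 and Fh1 were lower. Over all genes, 29.2% were called, 11.8% higher and 17.4% lower, so that 3 calls among 8 is near the share of the whole table. The median log2 fold change was 0.00 over the 8 cycle genes and −0.03 over all genes tested. The decreases of Suclg1 and Fh1 came from segments 12638 and 14402 bp upstream of the gene's most distal segment, and neither gene was called lower on its remaining segments.

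**Figure D1:**
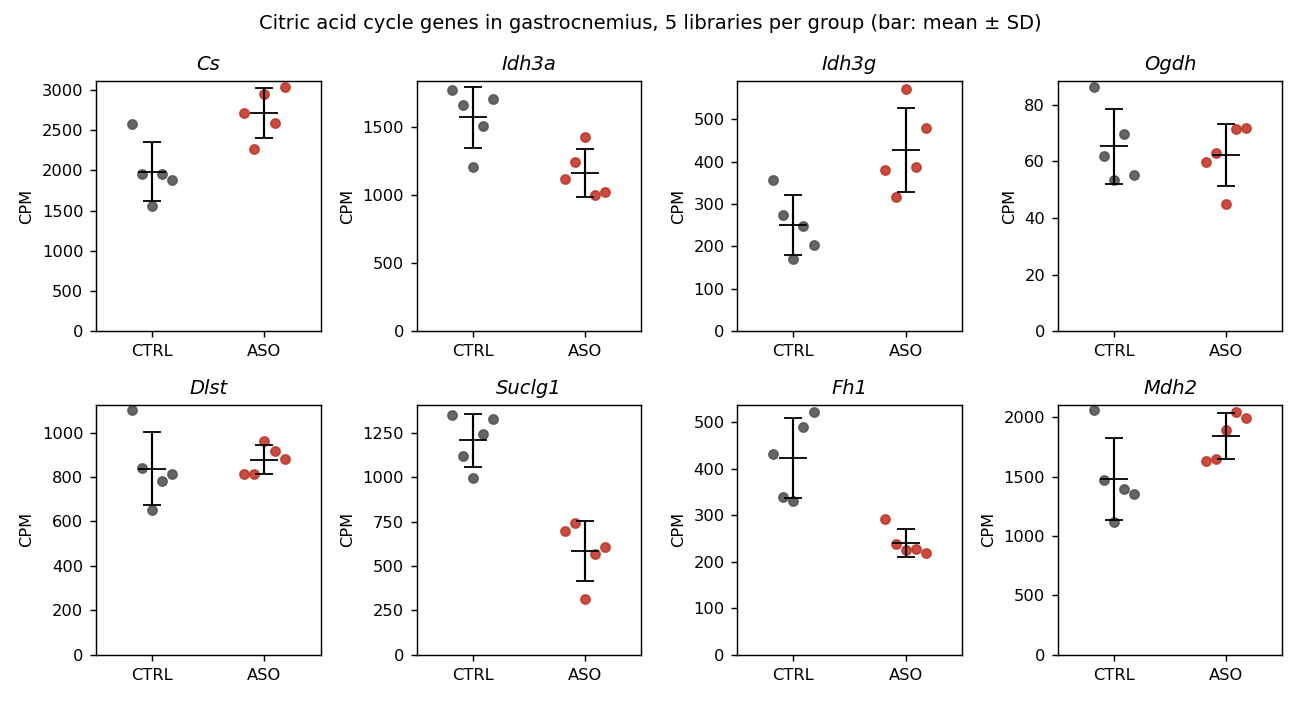
CPM of the 8 counted cycle genes (vertical axes, from 0) in the 5 CTRL and 5 ASO libraries, with 1 point per library and bars for the mean ± SD. Suclg1 and Fh1 are the genes whose groups do not overlap, with every ASO library below every CTRL library.

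Cs encodes citrate synthase, which joins acetyl-CoA and oxaloacetate to citrate. It was counted on 1 segment of 500 bp, all in its 3′ untranslated region (ENSMUSG00000005683, GRCm39 chr10:128197849-128198348, plus strand). Its level was 2576, 1959, 1553, 1952 and 1885 CPM in CTRL 1 to 5 and 2718, 2261, 2953, 2587 and 3036 CPM in ASO 1 to 5. Only CTRL 1 overlapped the ASO range, and CTRL 3 was the lowest of the 10 libraries. The mean was 1985 ± 370 CPM in CTRL and 2711 ± 309 CPM in ASO (SD), and the log2 fold change of 0.45 ± 0.16 (SE) missed the threshold (edgeR adjusted p = 0.052). DESeq2 put the same difference past it (log2 fold change 0.49, adjusted p = 0.0083), as did edgeR without CTRL 1 (0.56, adjusted p = 0.017). Of 24 alternatives in the processing or the libraries used, 10 called Cs higher and 14 left it uncalled. Among the 24, DESeq2 with shrunken fold changes keeps the p-values of DESeq2, so its calls are not separate. With total counts only it was at 0.27 (edgeR adjusted p = 0.15).

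The NAD-dependent isocitrate dehydrogenase is built of a catalytic subunit, Idh3a, and of Idh3b and Idh3g, which complete and regulate the enzyme. Idh3a was counted on 500 bp of its 3′ untranslated region (ENSMUSG00000032279, GRCm39 chr9:54510730-54511229, plus strand), which lie 716 bp upstream of its most distal segment. These bases are listed as the end of a transcript annotated for nonsense-mediated decay. The most distal position is listed for a pair of transcripts with the same end and took no count. Idh3a stood at 1764, 1661, 1200, 1505 and 1703 CPM in CTRL 1 to 5 and at 1114, 1236, 1424, 1001 and 1020 CPM in ASO 1 to 5. CTRL 3 lay within the ASO range and the 4 other CTRL libraries above it. The log2 fold change of −0.43 ± 0.16 (SE) missed the threshold (edgeR adjusted p = 0.052). It passed in DESeq2 (−0.39, adjusted p = 0.034) and in edgeR without CTRL 3 (−0.52, adjusted p = 0.020). Of the 24 alternatives, 9 called Idh3a lower and 15 left it uncalled. With upper quartile factors it was at −0.35 (edgeR adjusted p = 0.12).

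Idh3g was the cycle gene called higher. It has 1 segment of 107 bp in its 3′ untranslated region (ENSMUSG00000002010, GRCm39 chrX:72822569-72822675, minus strand). The libraries gave 356, 275, 171, 248 and 204 CPM in CTRL 1 to 5 and 380, 316, 570, 387 and 480 CPM in ASO 1 to 5. ASO 2 was the 1 treated library below the highest control, CTRL 1, and CTRL 3 was again the lowest. The mean went from 251 ± 70.8 to 427 ± 99.3 CPM (SD), a 1.70-fold increase with a log2 fold change of 0.77 ± 0.21 (SE, edgeR adjusted p = 0.018). With the most distal counted segment of every gene alone, which rescales the libraries, Idh3g was at 0.54 and missed the threshold (edgeR adjusted p = 0.069).

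Over all genes tested, 11.8% were called higher and 17.4% lower. Fast fibre markers were among the genes called higher, as was Idh3g. Of 10 such genes 5 were tested and 4 were called higher, and their summed level was 17450 to 33922 CPM in CTRL and 32752 to 73495 CPM in ASO, with Mylpf and Tnnt3, both defining genes, listed at 0 in every library. Of 10 slow fibre markers 7 were tested, and none was called by edgeR, DESeq2 or limma-voom or had an unadjusted p under 0.05. Their median log2 fold change was 1.24, against 1.08 for the fast list, with a summed level of 143 to 3134 CPM in CTRL and 64.2 to 8941 CPM in ASO and with Tnnt1 and Casq2 listed at 0. Of 8 general muscle markers 5 were tested and 1 was called higher, Mb being listed at 0. Their sum was 46479 to 86220 CPM in CTRL and 93903 to 137882 CPM in ASO, with no overlap. Among single genes, 7.97% had every ASO library above every CTRL library, a share that was not computed for sums of genes. The part of these shifts in the values of Idh3g and Cs was not tested. Among the markers of other cell types, edgeR called 1 of 5 tested macrophage and 1 of 4 fibroblast genes lower, and none of 7 adipocyte, 5 endothelial, 4 erythroid and 3 Schwann cell genes, of which 2 adipocyte genes had an unadjusted p under 0.05 and DESeq2 called none. Without CTRL 1, CTRL 3 and ASO 4 together, a choice made after seeing the data, Idh3g was at 0.88 (edgeR adjusted p = 0.014) and Cs passed at 0.54 (adjusted p = 0.027).

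Idh3g and Idh3a, 2 subunits of the same enzyme, moved apart within the libraries. The ratio of Idh3g to Idh3a counts was 0.202, 0.165, 0.143, 0.165 and 0.120 in CTRL 1 to 5 and 0.342, 0.255, 0.400, 0.387 and 0.471 in ASO 1 to 5. All ASO libraries lay above all CTRL libraries. For single genes the share with ASO wholly above was 7.97%, and no such share was computed for ratios of gene pairs. On the log2 scale the ratio went from −2.67 ± 0.28 to −1.46 ± 0.33 (SD), a difference of 1.22. Its p in an exact permutation test, two-sided, was 0.0079, which is the smallest that 5 against 5 can give, and 0.024 when adjusted over the 3 ratios computed. A within-library ratio shows that the counts of the pair changed unequally and does not depend on the scaling of the libraries. It compares 107 bp with 500 bp, so its size does not give the stoichiometry of the subunits, and the protein was not measured. The ratio also sets the most distal segment of Idh3g against bases of Idh3a that lie 716 bp upstream of its most distal segment. The part of this difference in position in the ratio was not tested.

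**Figure D2:**
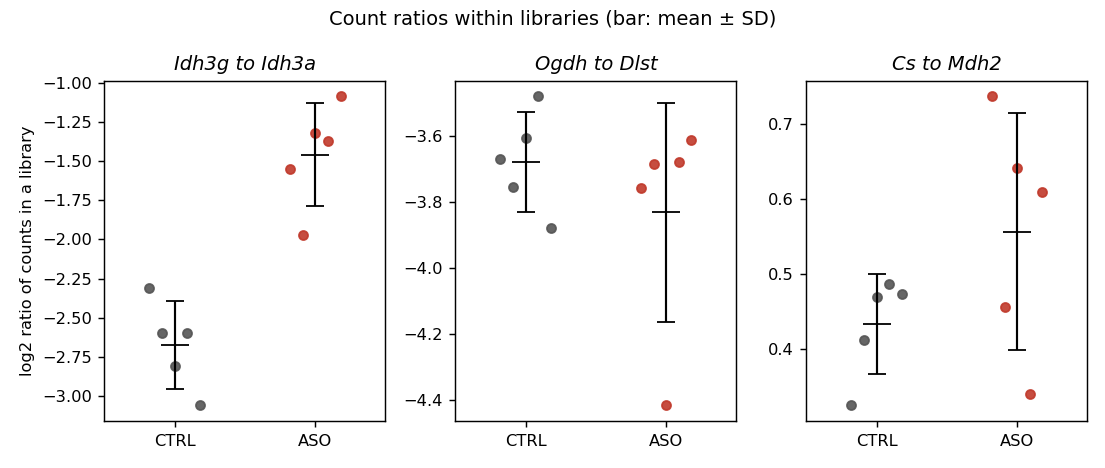
Log2 ratio of the counts of 2 cycle genes within each library (vertical axes, which differ between panels and do not start at 0), with 1 point per library and bars for the mean ± SD. For Idh3g to Idh3a the CTRL libraries end at −2.31 and the ASO libraries start at −1.97, while the groups overlap for Ogdh to Dlst and for Cs to Mdh2.

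Ogdh and Dlst encode the first and the second component of the 2-oxoglutarate dehydrogenase complex, which turns 2-oxoglutarate into succinyl-CoA. Ogdh had 4 listed segments that overlap each other almost wholly, leaving 64 bp free of overlap (ENSMUSG00000020456, from GRCm39 chr11:6306079-6306578 to chr11:6306143-6306642, plus strand). Its level was 86.3, 62.0, 53.4, 69.6 and 55.0 CPM in CTRL 1 to 5 and 59.9, 62.9, 44.8, 71.4 and 71.7 CPM in ASO 1 to 5. The groups overlapped, with the highest library in CTRL and the lowest in ASO. These are 98 to 183 read pairs per library, and the log2 fold change of −0.07 ± 0.17 (SE, edgeR adjusted p = 0.78) is smaller than its error.

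Ogdh was also the only one of the 9 genes whose annotated 3′ untranslated region holds the 7 letters GGCAGCT, the match to bases 2 to 8 of miR-22-3p, the microRNA that the ASO targets. The mature microRNA (RefSeq, GRCm38.p6) is shown with that seed in capitals, followed by the 3 stretches of Ogdh, read on the plus strand of GRCm39 chr11, with the match in capitals.

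mmu-miR-22-3p: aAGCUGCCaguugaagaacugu

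Ogdh, chr11:6305939-6305968: ctagagaaggaaGGCAGCTctggccccacc

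Ogdh, chr11:6307491-6307520: agggtccttggaGGCAGCTagtctcttcct

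Ogdh, chr11:6307716-6307745: ttctgcatcttgGGCAGCTaagcatctgcc

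The region is 3562 bp long in the canonical transcript, and the matches begin at its bases 280, 1832 and 2057. The first lies upstream of the counted segments and the other 2 lie downstream of them, in a part of the region that the table does not count. Only the transcript strand was searched, and 17.8% of the tested genes hold the same letters in their canonical 3′ untranslated region, whose median length is 1444 bp. Such a match is a description of the sequence and no measure of binding. Cs and Suclg1 each hold 1 match to the 6 letters GCAGCT, which are part of the 7, and the other genes hold neither.

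Dlst was counted on 3 segments with a level of 1103, 841, 653, 781 and 815 CPM in CTRL 1 to 5 and 814, 812, 961, 918 and 880 CPM in ASO 1 to 5 (ENSMUSG00000004789). The ASO libraries lay within the CTRL range. The sum over the gene had a log2 fold change of 0.07 ± 0.15 (SE, edgeR adjusted p = 0.77), and the ratio of Ogdh to Dlst differed by −0.15 on the log2 scale (two-sided exact permutation test, p = 0.43).

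The 3 segments of Dlst did not move together. The main one, with 91.4% of the counts, lies in the 3′ untranslated region (GRCm39 chr12:85180363-85180862) and had a log2 fold change of 0.30 ± 0.17 (SE, edgeR adjusted p = 0.18 over 10652 segments). Another segment lies 6508 bp upstream of the last one (chr12:85174612-85175111), is the end of a transcript annotated for nonsense-mediated decay and holds 27 coding and 473 intronic bp of the canonical transcript. There, CTRL 1 to 5 had 89.1, 71.8, 91.4, 111 and 131 CPM and ASO 1 to 5 had 21.7, 22.1, 8.04, 16.7 and 11.8 CPM. Every ASO library was below every CTRL library, and the log2 fold change was −2.58 ± 0.27 (SE, edgeR adjusted p = 3.4e-05). The most distal segment, outside the canonical transcript, had a log2 fold change of −0.999 ± 0.27 (edgeR adjusted p = 0.0094).

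Suclg1 encodes the alpha subunit that succinate-CoA ligase always uses, paired with the ADP-forming beta subunit Sucla2 or the GDP-forming Suclg2. Its summed level was 1350, 1119, 995, 1243 and 1324 CPM in CTRL 1 to 5 and 696, 741, 312, 569 and 606 CPM in ASO 1 to 5 (ENSMUSG00000052738). The groups did not overlap, and ASO 3 was the lowest. The log2 fold change over the gene was −1.04 ± 0.21 (SE, edgeR adjusted p = 0.0034), from a mean of 1206 ± 148 to 585 ± 167 CPM (SD). Among all genes, 13.4% had every ASO library below every CTRL library.

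That decrease lay on 1 of its segments. The segment at GRCm39 chr6:73240757-73241256, 12638 bp before the last one and again the end of a transcript annotated for nonsense-mediated decay, held 75.7% of the counts and 257 coding and 243 intronic bp of the canonical transcript. It stood at 1068, 892, 823, 1057 and 1099 CPM in CTRL 1 to 5 and at 483, 536, 141, 377 and 363 CPM in ASO 1 to 5, a log2 fold change of −1.35 ± 0.27 (SE, edgeR adjusted p = 0.0019). The most distal segment (chr6:73253692-73253894, 50 bp of its own) stood at 282, 227, 172, 186 and 225 CPM in CTRL 1 to 5 and at 213, 205, 171, 192 and 244 CPM in ASO 1 to 5. There the groups overlapped, with a log2 fold change of −0.05 ± 0.16 (edgeR adjusted p = 0.82). Reads on the coding bases of the upstream segment can come from the full-length mRNA as well as from the shorter transcript, and the table does not tell them apart. When segments 2000 bp or more upstream of the most distal one were left out, a choice made after seeing the data, Suclg1 had a log2 fold change of −0.23 (edgeR adjusted p = 0.31).

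Fh1 encodes fumarase, which hydrates fumarate to malate. Its summed level was 432, 340, 331, 490 and 522 CPM in CTRL 1 to 5 and 292, 239, 225, 228 and 218 CPM in ASO 1 to 5 (ENSMUSG00000026526). The groups did not overlap, and ASO 1 was the highest of the treated libraries by a wide gap. The log2 fold change was −0.81 ± 0.16 (SE, edgeR adjusted p = 0.0032), from 423 ± 86.2 to 240 ± 29.9 CPM (SD).

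The segments of Fh1 moved in opposite directions. The one 14402 bp upstream of the most distal (GRCm39 chr1:175442342-175442841, minus strand) is the end of a transcript annotated for nonsense-mediated decay. It held 72.9% of the counts, and 138 coding and 362 intronic bp of the canonical transcript. There, CTRL 1 to 5 had 349, 272, 279, 421 and 448 CPM and ASO 1 to 5 had 202, 163, 85.0, 130 and 108 CPM. All ASO libraries were lower, with a log2 fold change of −1.33 ± 0.23 (SE, edgeR adjusted p = 7.5e-04). On a 40 bp segment in the 3′ untranslated region (chr1:175428950-175428989; 23.6% of the counts) the values were 65.6, 56.9, 40.0, 50.2 and 62.4 CPM in CTRL 1 to 5 and 85.9, 66.3, 134, 84.8 and 96.7 CPM in ASO 1 to 5. Every ASO library was higher there, and the log2 fold change was 0.81 ± 0.21 (adjusted p = 0.0075). The most distal segment, with 3.50% of the counts, gave −0.54 ± 0.34 (adjusted p = 0.22). Without segments 2000 bp or more upstream, Fh1 turned to 0.44 (edgeR adjusted p = 0.087), so the direction of this gene depends on which of its ends is counted.

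**Figure D3:**
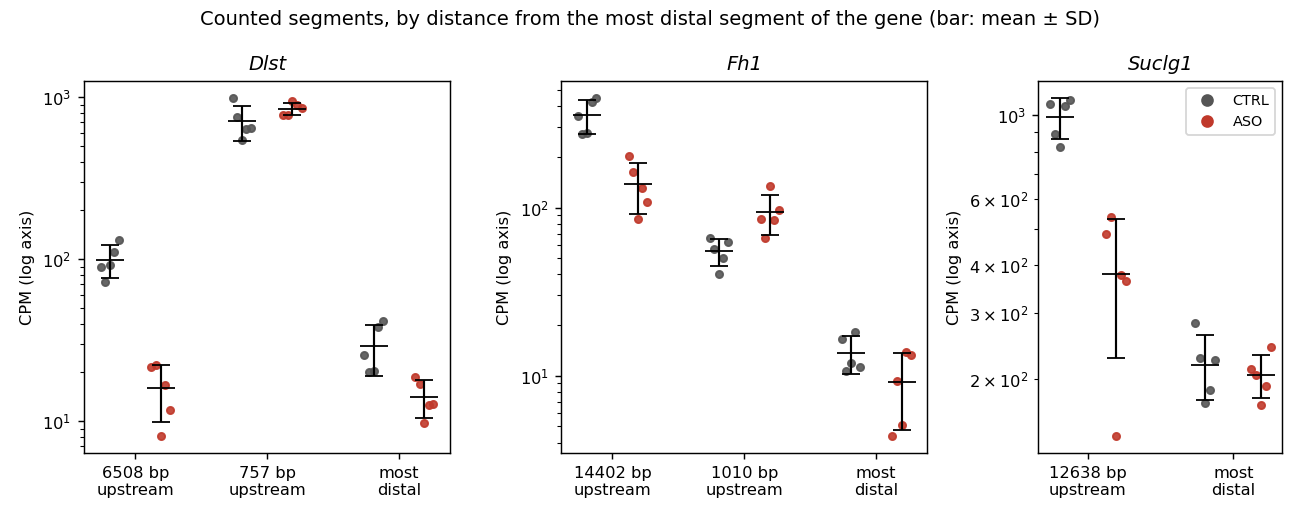
CPM on a log axis for each counted segment of Dlst, Fh1 and Suclg1, placed by its distance from the most distal segment of the gene, with 1 point per library and bars for the mean ± SD. On the segments 6508, 14402 and 12638 bp upstream every ASO library lies below every CTRL library, while the 1010 bp segment of Fh1 is higher in ASO.

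This pattern was shared by much of the table. Of the tested segments 40.6% were called, and of the 2700 that lie 2000 bp or more upstream of the most distal one 55.9% were called lower and 5.52% higher, with a median log2 fold change of −0.95. Of the 7952 segments nearer to the end, 14.1% were called lower and 19.5% higher, with a median of 0.15. Over all counts, the share on far upstream segments was 13.1% to 18.3% in CTRL and 7.67% to 9.43% in ASO libraries. The part of this shift in the values of Suclg1, Fh1 and Dlst was not tested.

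The share of a gene's own counts on its far upstream segments put the 3 genes on 1 scale. In Suclg1 it was 79.1%, 79.7%, 82.7%, 85.0% and 83.0% in CTRL 1 to 5 and 69.4%, 72.3%, 45.2%, 66.3% and 59.8% in ASO 1 to 5. In Fh1 it was 81.0%, 80.1%, 84.3%, 86.0% and 85.9% in CTRL 1 to 5 and 69.1%, 68.3%, 37.9%, 56.9% and 49.6% in ASO 1 to 5. In Dlst it was 8.08%, 8.54%, 14.0%, 14.2% and 16.1% in CTRL 1 to 5 and 2.67%, 2.72%, 0.836%, 1.82% and 1.34% in ASO 1 to 5. All 3 genes had lower shares in every ASO library than in any CTRL library, and in each the lowest library was ASO 3. On the log2 odds the two-sided exact permutation test gave p = 0.0079 for each gene. The mean difference of ASO minus CTRL was −19.3 percentage points in Suclg1, −27.1 in Fh1 and −10.3 in Dlst. Among the 1602 genes with at least 50 counts on either side, 50.1% had every ASO library below every CTRL library and 0.936% the reverse, with a median difference of −14.9 points.

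**Figure D4:**
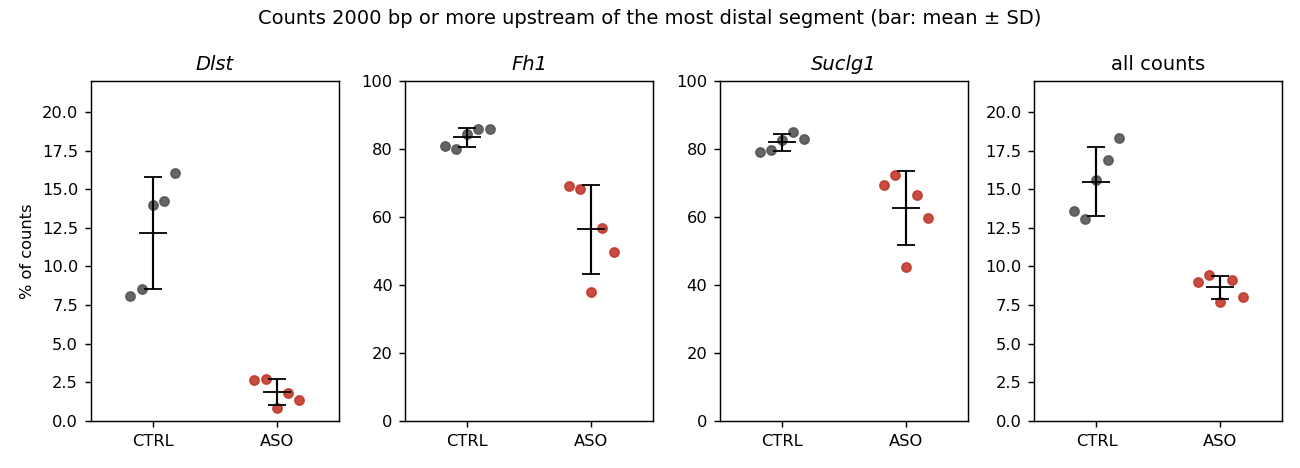
Share of counts (in %) on segments 2000 bp or more upstream of the most distal one, for Dlst, Fh1, Suclg1 and all counts of a library, with 1 point per library and bars for the mean ± SD. In all 4 panels every ASO library lies below every CTRL library; the axes of Dlst and of all counts end at 22%.

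Mdh2 encodes the mitochondrial malate dehydrogenase, which regenerates oxaloacetate. It was counted on 1 segment of 500 bp (ENSMUSG00000019179, GRCm39 chr5:135818753-135819252, plus strand), the end of a transcript annotated for nonsense-mediated decay. The whole segment holds 129 coding, 190 untranslated and 178 intronic bp of the canonical transcript. Of the untranslated bp, 183 are shared with another listed segment, which took no count. The 317 bp free of overlap are thus mostly coding and intronic. The level was 2058, 1473, 1122, 1393 and 1358 CPM in CTRL 1 to 5 and 1631, 1649, 1893, 2045 and 1990 CPM in ASO 1 to 5. CTRL 1 was the highest of the 10 libraries and the other CTRL libraries lay below all ASO libraries. The log2 fold change was 0.31 ± 0.17 (SE, edgeR adjusted p = 0.18), and without CTRL 1 it was 0.47 (adjusted p = 0.036). The ratio of Cs to Mdh2 within libraries ranged from 1.25 to 1.40 in CTRL and from 1.26 to 1.67 in ASO, and the difference of 0.12 on the log2 scale was within the spread (two-sided exact permutation test, p = 0.15).

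Levels of segments were set side by side where the segments have the same length of 500 bp and share no base with another. The segments of Cs, Idh3a and Dlst lie wholly in the 3′ untranslated region. Those of Suclg1 and Fh1 lie 12638 and 14402 bp upstream and hold 243 and 362 intronic bp. The order below is thus one of segments and does not rank the genes. Taking the segment of each gene with the most counts, 5 genes met this rule. In CTRL the order was Cs (1985 ± 370 CPM, SD), Idh3a (1567 ± 226), the upstream segment of Suclg1 (988 ± 123), Dlst (710 ± 172) and the upstream segment of Fh1 (354 ± 80.3). In ASO it was Cs (2711 ± 309), Idh3a (1159 ± 175), Dlst (847 ± 74.2), Suclg1 (380 ± 152) and Fh1 (138 ± 46.0), so that the segments of Dlst and Suclg1 changed places. In CTRL the means of Cs and Idh3a, and those of Suclg1 and Dlst, were closer than their summed SDs. All other neighbours, in either group, were farther apart than theirs.

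The other enzymes of the cycle include the partner subunits of the same complexes. Of 10 other cycle enzymes 8 were tested, 1 was called higher and 1 lower, with a median log2 fold change of −0.21. Over all genes tested, 11.8% were called higher and 17.4% lower, so these counts are near the background. Those calls fell on subunits of succinate dehydrogenase, the membrane enzyme that turns succinate into fumarate. Sdhb, its iron-sulfur subunit, went from 412 ± 133 to 734 ± 233 CPM (SD), a log2 fold change of 0.83 ± 0.26 (SE, edgeR adjusted p = 0.027), and lost the call in 10 of 24 alternatives. Sdhd, 1 of its membrane anchors, went from 1226 ± 257 to 765 ± 109 CPM, a log2 fold change of −0.68 ± 0.17 (adjusted p = 0.011), with no overlap between groups. It kept the call in all 24 alternatives, and its single 500 bp segment lies at the 3′ end. Sdha, the flavoprotein, was at −0.38 (adjusted p = 0.092) and Sdhc, the other anchor, at −0.15 (adjusted p = 0.44).

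For the beta subunits that pair with Suclg1, Sucla2 had a log2 fold change of −0.28 ± 0.16 and Suclg2 of 0.02 ± 0.15 (SE, edgeR adjusted p = 0.20 and 0.95). Dld, the third component of the 2-oxoglutarate dehydrogenase complex, was at 0.29 (adjusted p = 0.36). Idh2, the NADP-dependent isocitrate dehydrogenase, was at −0.34 ± 0.53 (SE, edgeR adjusted p = 0.66). Ogdhl and Mrps36 had too few counts to be tested.

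**Figure D5:**
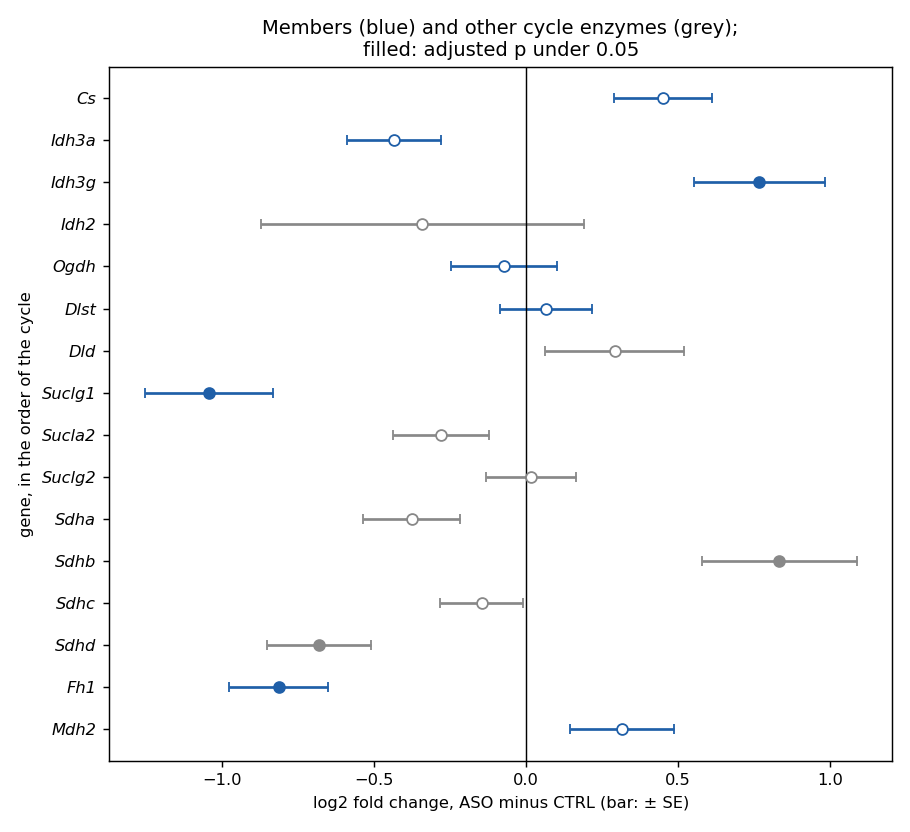
Log2 fold change of ASO over CTRL with its SE (horizontal axis) for the 8 counted members in blue and 8 other tested cycle enzymes in grey, in the order of the cycle. Filled points passed an edgeR adjusted p of 0.05: Idh3g and Sdhb to the right of 0, and Suclg1, Sdhd and Fh1 to the left, of which Suclg1 and Fh1 rest on far upstream segments.

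Around the cycle, 45 genes in 5 lists (other enzymes of the cycle, cofactor and assembly factors, cytosolic counterparts and feeding enzymes, carriers, and pyruvate dehydrogenase) gave 33 tested genes, of which 3 were called higher and 3 lower, against 11.8% and 17.4% of all genes. Their median log2 fold change was −0.15, against −0.03 over all genes. Glud1, which feeds glutamate carbon into the cycle as 2-oxoglutarate, went from 81.1 ± 11.1 to 122 ± 14.6 CPM (SD; log2 fold change 0.58, edgeR adjusted p = 0.0079), with every ASO library above every CTRL library. Pdhb, a subunit of the pyruvate dehydrogenase that makes acetyl-CoA, had a log2 fold change of 0.48 (adjusted p = 0.040). Got1, the cytosolic aspartate aminotransferase, had −0.72 (adjusted p = 0.023), and Slc25a12, the mitochondrial aspartate and glutamate carrier, had −0.50 (adjusted p = 0.043). Of 24 alternatives, the call was lost in 1 for Glud1, 5 for Got1, 11 for Pdhb and 13 for Slc25a12. On the most distal counted segment Got1 was at −0.24 (edgeR adjusted p = 0.50), and without segments 2000 bp or more upstream at −0.86 (adjusted p = 0.013). In the list of cofactor and assembly factors, such as lipoate synthesis and the assembly of succinate dehydrogenase, 8 genes were tested and edgeR called none, with 1 at an unadjusted p under 0.05. DESeq2 called 1 of the list and limma-voom none.

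By likeness over the 10 libraries, each cycle gene was set against 7738 genes, with the root mean square difference of standardized log2 CPM as the measure. The nearest to Idh3g were Ndufb11 (0.12) and Ndufa8 (0.16), and to Cs Uqcr11 (0.17) and Ndufb8 (0.18). Ckmt2 lay at 0.25 from Mdh2, and the nearest to Dlst were Mcrip2 (0.24) and Tmem65 (0.29). Suclg1 was nearest to Cyb5r1 (0.11) and Cnbp (0.15), and Fh1 to Sf1 (0.21) and Nsun4 (0.23). Idh3a had Ldb3 and Phf20l1 at 0.35 each, and Ogdh had Prkag1 (0.39) and Cox5a (0.45). Cs and Idh3g were each other's nearest cycle gene, at ranks 8 and 22, while for Ogdh the nearest of the set stood at rank 644.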

How the data were processed

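Gastrocnemius RNA of 10 mice was sequenced from libraries of the Illumina stranded mRNA prep kit, from RNA with, per the labels, a RIN above 7. The authors deposited raw counts of read pairs: reads were trimmed with fastp, aligned to GRCm39 with STAR and counted with featureCounts, with Gencode M25 as the annotation and only the final 500 bp of each 3′ untranslated region. No strand option is given for the counting, so overlapping antisense reads cannot be told apart. Groups came from the sample titles, and 4 further per-sample columns were not used.

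The table holds 52423 segments, each named by a transcript. Of these, 52361 matched Gencode M39 by transcript ID, 33446 of them with the same 3′ end, and the 62 without a match (0.0197% of counts) were left out. Of 18300 segments that share all their bases with others, 383 took any count. Segments were summed per gene, and genes kept by edgeR's filterByExpr were tested with edgeR 4.0.16 (TMM, quasi-likelihood) in R 4.3.3. DESeq2 1.42.0, ashr 2.2.63 and limma-voom 3.58.1 served as alternatives. Shrinkage with ashr changes the fold changes of DESeq2 and keeps its p-values, so every DESeq2 call is counted again under ashr. After the data had been seen, each segment was also tested on its own. That fit had its own TMM scaling, while the CPM of segments use the scaling of the genes, so the 2 can differ slightly. Cs, with 1 segment, had a log2 fold change of 0.45 as a gene and 0.49 as a segment. Ratios and shares of counts were tested over all 252 labellings of the libraries, with 0.5 added to each count. The edgeR test was tested on simulated data, where it found 128 of 195 changed genes that passed its filter, with 6 false calls. On the same data limma-voom found 123 of 195 with 6 false calls, and DESeq2 found 145 of 200 with 20 false calls. The simulation changed 200 genes, as many up as down, while 2283 genes were called in the muscle libraries. Its rates thus do not carry over to these data. Seed matches were read from the M39 canonical transcripts.

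The members and the gene lists were chosen with earlier results of these data known. The text names the members, every gene of the wider cycle lists past the threshold, the other subunits of the members' complexes, and the 2 nearest tested genes of each member, taken from those with a mean of 10 counts or more. Libraries are separate mice. The planned ratios of Idh3b to Idh3a and of Mdh2 to Mdh1 were not computed, since Idh3b and Mdh1 were listed at 0 throughout. For 1 further gene, which the wider lists and the nearest genes would hold, values are not reported here.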

Additional observations from a re-analysis of the deposited data

Results flagged for a closer look

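In 28 groups of 5 libraries, 2 held a library far from the other 4 by Dixon's test, which flags about 1 group in 20 by chance. For Fh1, ASO 1 stood at 292 CPM against 218 to 239 CPM in the other ASO libraries. For the log2 ratio of Ogdh to Dlst, ASO 3 stood at −4.42, and the other ASO libraries lay between −3.76 and −3.61.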

How the results depend on the processing

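Between 1 and 3 of the 8 cycle genes were called lower and between 0 and 3 higher over 24 alternatives, against 2 and 1. The called higher count was 2 with DESeq2, with ashr, with limma-voom, with RLE or upper quartile factors, without the 20 most abundant genes and without CTRL 1, CTRL 3 and ASO 4 together, Cs joining Idh3g each time. It was 0 by edgeR on the most distal counted segment and in the fit with the replicate block (1 and 2 genes at an unadjusted p under 0.05), and ranged from 1 to 3 when 1 library was left out, with 3 (Cs, Idh3g and Mdh2) without CTRL 1. On the most distal counted segment the genes called lower were Idh3a, Ogdh and Dlst, while Suclg1 was at −0.31 (edgeR adjusted p = 0.19) and Fh1 at −0.80 (adjusted p = 0.12). The called lower count was 1 (Idh3a) without segments 2000 bp or more upstream. Over all genes, 920 were higher and 1363 lower; with total counts only 528 were higher and 1819 lower, with upper quartile factors 1262 and 1206, on the most distal counted segment 388 and 602, and without segments 2000 bp or more upstream 602 and 870. The median of all genes was −0.21 with total counts only, against −0.03.

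Fh1 was at 0.44 without segments 2000 bp or more upstream. Dlst reversed to −0.11 with total counts only and to −1.27 (edgeR adjusted p = 0.011) on the most distal counted segment, and ranged from −0.015 to 0.19 when 1 library was left out. That Dlst segment held 2.40% of the gene's counts and lies outside the canonical transcript. Ogdh turned to 0.013 with upper quartile factors and ranged from −0.14 to 0.058 with 1 library left out. On the most distal counted segment Ogdh was called lower at −1.34 (edgeR adjusted p = 0.021). That segment held 5.67% of the gene's counts, at 9 to 11 read pairs per CTRL library and 3 to 9 per ASO library. The Ogdh segment with 94.3% of the counts, tested on its own, had a log2 fold change of 0.03 (edgeR adjusted p = 0.90). The cause of these changes was not tested beyond the change of segments or libraries itself.

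The replicate numbers did not pair the libraries: the correlations of same-numbered deviations were −0.43, 0.06, 0.05, 0.06 and 0.16. With the replicate block Idh3g was at 0.78 (edgeR adjusted p = 0.054), and the Idh3g to Idh3a difference stayed 1.22 with p = 0.0625, the smallest that an exact sign-flip test of 5 pairs can give. The Cs to Mdh2 difference ranged from 0.078 to 0.18 with 1 library left out, the highest without ASO 4 (exact permutation test, p = 0.032). Ogdh had 98 to 183 read pairs per library, on 64 bp free of overlap.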
